A study of Homo sapiens with 6 samples.

Results

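The genes described here encode 7 ligands of the epidermal growth factor family (EGF, TGFA, AREG, EREG, BTC, HBEGF and NRG1) and 3 receptors of the ERBB family (ERBB2, ERBB3 and ERBB4), 10 genes of the 20163 protein-coding genes in the annotation. They were chosen by name and not by a rule on measured values, but with earlier results of these data known. For each gene, all ATAC-seq peaks that overlapped its body extended by 50 kb to each side were collected, a stretch called its window below. Of the 29879 peaks in the 6 deposited lists, 44 fell in these windows. A peak was counted at the promoter when it came within 3 kb of the start site of any transcript of the gene. A peak within 3 kb of a start site of a different gene was counted as the promoter of another gene, and all others were distal.

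ATAC-seq marks open chromatin, where the Tn5 transposase can cut DNA. The study compared HET-1A, a non-cancerous human esophageal epithelial cell line cultured in BEBM medium with additives, with KYSE-30 and KYSE-150, both esophageal squamous cell carcinoma (ESCC) lines cultured in RPMI/F12 with serum. The labels give no treatment. Each line had 2 replicates, with 1 library each, which are named here by the numbers in their labels (1 and 2, 4 and 6, 7 and 8). HET-1A was the only non-cancerous line, and its medium differed from that of both ESCC lines, so an effect of the line and an effect of the medium cannot be told apart.

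The ligands of this family are made as membrane-anchored precursors and are released by proteases of the ADAM family. EGF, TGFA and AREG bind EGFR, while BTC, EREG and HBEGF bind both EGFR and ERBB4, and NRG1 (neuregulin) binds ERBB3 and ERBB4. The receptors work as pairs. ERBB2 has no known ligand of its own and is the preferred partner of the others, and ERBB3 has little kinase activity and signals through its partner. In squamous epithelia these ligands act on the cells that make them and on their neighbours, and they drive proliferation and repair.

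The peak lists differed greatly in length. HET-1A had 168 peaks in replicate 1 but 15979 in replicate 2, KYSE-30 had 1255 in replicate 4 but 11671 in replicate 6, and KYSE-150 had 547 in replicate 7 but 259 in replicate 8. The lists hold no read totals. With 2 replicates per line, the smallest two-sided p-value of an exact permutation test is 0.33, so no such test was made and each replicate is described on its own. Fold enrichment sets the tags at the peak summit, plus 1, against the local background in that library, plus 1. It depends on the depth of the library, so that fold enrichments rank peaks within a list and are not compared in size between libraries. Tags and background were recovered from the fold enrichment and p-value for at least 99.6% of the peaks of every library. The genome background, the smallest background of a library, was 3.34 tags per 200 bp in HET-1A replicate 2 and 1.49 in KYSE-30 replicate 6, and the relative background of a peak is its local background over this value. Of 7 squamous epithelial marker genes, EPCAM and KRT6A had a promoter peak in HET-1A replicate 2 and EPCAM in KYSE-30 replicate 6, while TP63, KRT5, KRT14, SOX2 and CDH1 had none in any library. Of 4 mesenchymal markers, FN1 had one in HET-1A replicate 2 and VIM in KYSE-30 replicate 6, and none of 3 leukocyte markers and not CDH5, the endothelial marker that was found in the annotation, had one. Over all protein-coding genes, 35.4% had a promoter peak in HET-1A replicate 2 and 28.7% in KYSE-30 replicate 6. Marker counts this small cannot be told from these shares, so they give no information on the labelled epithelial type.

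The sequences at 7 peaks described below are shown first. These peaks were picked as examples, so their motifs do not stand for the peaks in the windows. Each is the plus strand of hg19, in 5′ to 3′ direction, 200 bp centred on the peak summit, except that the HBEGF sequence is limited to the 162 bp upstream of its start site. Since HBEGF is on the minus strand, its printed sequence begins beside the start site and runs away from the gene. Capitals mark the motifs searched on both strands, namely the AP-1 core (TGAGTCA or TGACTCA), the GC box (GGGCGG, or its complement CCGCCC) and the TEAD motif (GGAATG or CATTCC). The cyclic AMP response element TGACGTCA, also searched, is in none of them. The first 3 lie at EREG, the gene with the most promoter and distal peaks of KYSE-30 replicate 6 among the ligands of chromosome 4, at 44.5 kb upstream, at the promoter and in the intron 9.64 kb downstream of the start. The 4th lies between AREG and BTC and is the strongest peak among these ligand genes. The TGFA and ERBB4 sequences belong to distal regions with a peak in both HET-1A and KYSE-30, and the HBEGF sequence lies at a promoter with a peak in HET-1A. The TGFA sequence is centred on the summit of KYSE-30 replicate 6 and lies outside the overlapping peak of HET-1A replicate 2.
EREG upstream, chr4:75186312-75186511: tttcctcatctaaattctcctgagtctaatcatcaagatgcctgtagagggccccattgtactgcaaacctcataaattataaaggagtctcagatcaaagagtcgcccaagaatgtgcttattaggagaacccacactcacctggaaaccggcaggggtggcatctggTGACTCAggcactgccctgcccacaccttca
EREG promoter, chr4:75230417-75230616: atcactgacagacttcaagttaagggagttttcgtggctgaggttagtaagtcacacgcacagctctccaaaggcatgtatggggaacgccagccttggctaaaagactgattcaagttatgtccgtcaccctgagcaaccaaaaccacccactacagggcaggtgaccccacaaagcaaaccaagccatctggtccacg
EREG intron, chr4:75240406-75240605: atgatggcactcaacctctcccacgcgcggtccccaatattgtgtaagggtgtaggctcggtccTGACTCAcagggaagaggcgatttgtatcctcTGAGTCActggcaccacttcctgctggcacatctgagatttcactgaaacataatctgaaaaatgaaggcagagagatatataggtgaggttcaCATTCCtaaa
Between AREG and BTC, chr4:75585057-75585256: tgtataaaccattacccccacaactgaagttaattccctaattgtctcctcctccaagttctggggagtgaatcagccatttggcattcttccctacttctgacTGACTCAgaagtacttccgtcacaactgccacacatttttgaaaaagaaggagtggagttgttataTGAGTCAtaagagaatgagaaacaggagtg
TGFA upstream, chr2:70823480-70823679: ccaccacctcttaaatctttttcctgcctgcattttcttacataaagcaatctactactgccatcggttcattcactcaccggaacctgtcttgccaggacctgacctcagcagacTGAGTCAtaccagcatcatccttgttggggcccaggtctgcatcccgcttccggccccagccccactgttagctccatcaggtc
ERBB4 intron, chr2:212273239-212273438: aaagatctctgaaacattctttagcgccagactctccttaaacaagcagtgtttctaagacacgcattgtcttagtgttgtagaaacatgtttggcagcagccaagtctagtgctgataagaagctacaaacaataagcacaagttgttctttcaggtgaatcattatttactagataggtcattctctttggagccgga
HBEGF promoter, chr5:139726189-139726350: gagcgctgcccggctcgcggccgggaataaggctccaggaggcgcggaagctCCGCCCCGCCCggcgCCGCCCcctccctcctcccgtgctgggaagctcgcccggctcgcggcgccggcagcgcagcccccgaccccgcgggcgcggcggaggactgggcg

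Among the 10 genes, TGFA was the only one with a promoter peak in 2 lines. HET-1A replicate 2 had promoter peaks at TGFA, HBEGF and ERBB2, and KYSE-30 replicate 6 had them at EGF, TGFA, EREG and BTC. AREG, NRG1, ERBB3 and ERBB4 had none in any library. The 3 genes in HET-1A replicate 2 compare with 35.4% of all protein-coding genes that had a promoter peak in this list, and the 4 genes in KYSE-30 replicate 6 with 28.7%. In the other 4 replicates none of the 10 genes had one, beside a share of all genes of 0.0942% in HET-1A replicate 1, 3.87% in KYSE-30 replicate 4, 1.79% in KYSE-150 replicate 7 and 0.362% in KYSE-150 replicate 8. The counts are near these shares, so the 10 genes as a group did not stand out at their promoters. A count of 0 in the short lists cannot be told from such low shares.

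The same on and off pattern over the 6 libraries was common. The pattern of EGF, EREG and BTC, a promoter peak in KYSE-30 replicate 6 and in no other list, was shared by 1947 genes, or 9.66% of all. That of HBEGF and ERBB2, a peak in HET-1A replicate 2 and in no other list, was shared by 3280 genes (16.3%), and that of TGFA by 2971 genes (14.7%). The 4 genes without a promoter peak were in the company of 10816 genes (53.6%).

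**Figure D1:**
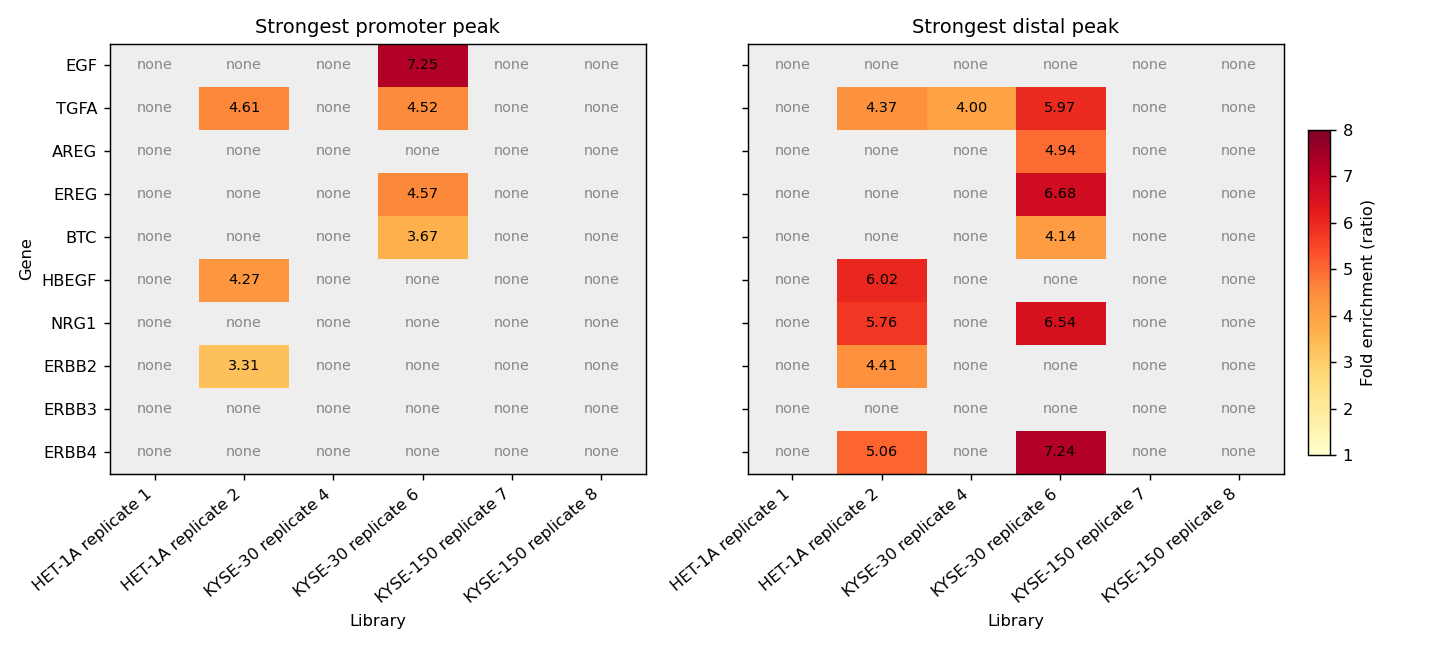
Fold enrichment (ratio, colour and number) of the strongest promoter peak (left) and the strongest distal peak (right) of each gene (rows) in each library (columns), with "none" where no peak was called. The filled cells lie in HET-1A replicate 2 and KYSE-30 replicate 6, except for 1 TGFA cell in KYSE-30 replicate 4.

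Distal peaks were found in the windows of 5 of the 10 genes in HET-1A replicate 2 (10 peaks) and of 6 genes in KYSE-30 replicate 6 (14 peaks), and at TGFA alone in KYSE-30 replicate 4 (1 peak). Over all protein-coding genes, a distal peak lay in the window of 32.7% in HET-1A replicate 2, 21.8% in KYSE-30 replicate 6 and 2.47% in KYSE-30 replicate 4. None of the 10 windows held a peak of any class in HET-1A replicate 1, KYSE-150 replicate 7 or KYSE-150 replicate 8. For distal peaks alone, the shares of all genes were 0.675%, 1.31% and 0.789%. Windows are not equal in length. Those of NRG1 and ERBB4 span 1316.4 kb and 1263.1 kb, and the median over all genes was 127.2 kb. Counted per Mb, the windows of the 10 genes together (3.71 Mb) held 5.93 peaks in HET-1A replicate 2 beside 7.26 in the windows of all genes, and 5.66 beside 5.20 in KYSE-30 replicate 6. These pooled densities were near those of all genes, but NRG1 and ERBB4 make up most of the pooled length. In HET-1A replicate 2 they held 1 peak each of the 22 in the windows. In KYSE-30 replicate 6 they held 4 and 2 of the 21. The pooled density thus does not describe the shorter windows, which held most of the peaks in the smaller part of the length. Their own density was above the pooled one in both lists and was not computed apart. The distal share of the peaks in the windows was 45.5% in HET-1A replicate 2, beside 46.9% of its whole list, and 66.7% in KYSE-30 replicate 6, beside 44.9%. Of the 14 distal peaks of KYSE-30 replicate 6, 4 lay in the long window of NRG1 and 2 in that of ERBB4. The difference in distal share was not tested.

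**Figure D2:**
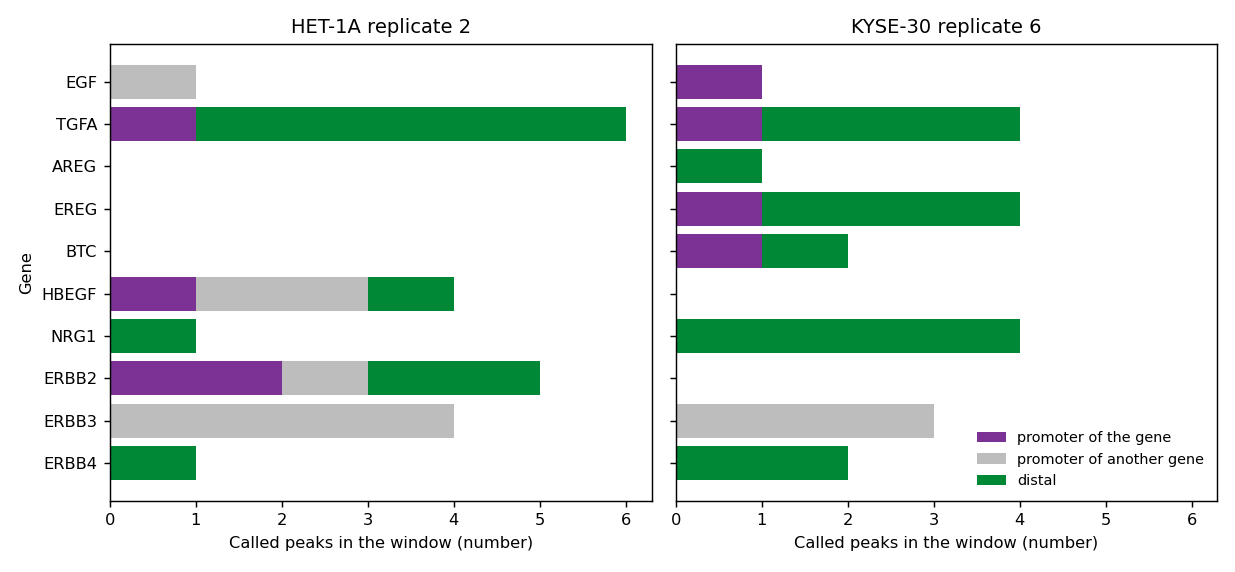
Number of called peaks in the window of each gene (bars, stacked by class) in HET-1A replicate 2 (left, 22 peaks) and KYSE-30 replicate 6 (right, 21 peaks), the lists that hold 43 of the 44 peaks. EREG, BTC and AREG have bars in KYSE-30 replicate 6 and HBEGF and ERBB2 in HET-1A replicate 2.

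The 44 peaks merged into 37 regions, of which 7 had a peak in 2 libraries and 0 in 3. Of these regions, 15 were found in HET-1A replicate 2 alone and 15 in KYSE-30 replicate 6 alone. The 6 regions with a peak in both of these lists made up 27.3% of the 22 regions of HET-1A replicate 2 and 28.6% of the 21 regions of KYSE-30 replicate 6, where 28.6% and 39.1% of the whole lists overlapped. The shared regions were 3 distal ones, of which 2 lay at TGFA and 1 in ERBB4, and 3 at promoters of genes beside ERBB3. The remaining region with 2 libraries lay in TGFA, with a peak of HET-1A replicate 2 and one of KYSE-30 replicate 4. No region in the windows had a peak in both libraries of 1 line. HET-1A replicate 1 and KYSE-150 replicates 7 and 8 had 0 peaks in the windows, so for these lines the count was fixed in advance. KYSE-30 replicate 4 had 1 peak there, so at most 1 region could be found in both libraries of KYSE-30, or in 3 libraries. The overlap of whole lists between replicates of a line is not given here. The count is thus no measure of how well replicates match at these genes.

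EREG, which encodes epiregulin, had 4 peaks in KYSE-30 replicate 6 and none in the other 5 replicates. The gene lies at chr4:75230862-75254466 on the plus strand. Its promoter peak at chr4:75230398-75230703 had a fold enrichment of 4.57 (20 tags), with the summit 0.34 kb upstream of the start. A distal peak at chr4:75186303-75186609, 44.5 kb upstream, had 6.12 (23 tags). In its intron, a peak at chr4:75240359-75240694 had 6.68 (34 tags), and its neighbour at chr4:75240978-75241190 had 5.11 (26 tags). The distal peaks were thus all higher in fold enrichment than the promoter peak. The first intron peak was the best ranked of this list in the 10 windows, with 9.02% of the list at a smaller p-value. All 3 distal peaks held an AP-1 core within 200 bp around the summit, and the same stretch of the promoter peak held none of the 4 motifs, although the whole promoter peak held a TEAD motif. The relative background at the 4 peaks was 1.96 to 2.88 with a median of 2.63, beside a median of 1.44 over the whole list, and its part in the peaks was not tested.

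AREG, which encodes amphiregulin, had no peak at its promoter and 1 distal peak. This peak at chr4:75346104-75346303, 35.3 kb downstream of the start, was found in KYSE-30 replicate 6 with a fold enrichment of 4.94 (15 tags). The promoter of AREG can hardly be read in this genome build. In hg19 the gene, at chr4:75310853-75320722 on the plus strand, lies in a stretch of 41.0 kb (chr4:75282465-75323487) with a near-identical copy at chr4:75452280-75493261, annotated as AREGB. Of the 50-base words of the first copy, 95.8% also occur in the second, and 93.2% of the words within 1 kb of the AREG start occur elsewhere in the genome, beside 2.56% for ERBB2 and 0 for the other 8 genes. No library had a peak in either copy. Whether reads that match at more than 1 place were kept is not given in the sources used here, so that the lack of a peak at AREG is no measure of its accessibility.

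BTC, which encodes betacellulin, had 2 weak peaks, both in KYSE-30 replicate 6. The gene lies at chr4:75669969-75719733 on the minus strand. The peak counted at its promoter, chr4:75694301-75694568, had a fold enrichment of 3.67 (12 tags). It lay near the start of the second of 2 annotated transcripts, 25.3 kb inside the gene from the start of the canonical one, and 97.4% of the list had a smaller p-value. The distal peak at chr4:75641636-75641852, beyond the 3′ end, had 4.14 (11 tags), with 94.0% of the list at a smaller p-value. Neither peak held an AP-1 core.

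These 3 genes and EPGN, the epigen gene, lie side by side on chromosome 4, and the stretch from the EPGN start to the BTC end (chr4:75174187-75719733, 545.5 kb) was looked at as a whole. It was chosen after its values were seen, and is a description. KYSE-30 replicate 6 had 12 peaks in it, 22.0 per Mb beside 5.20 per Mb in the windows of all genes, with fold enrichments of 3.60 to 9.17. HET-1A replicate 2 had 1 peak, KYSE-30 replicate 4 had 1, and the remaining lists had 0. Of the 12 peaks 9 were distal, beside 44.9% of the whole list, and 6 of these 9 held an AP-1 core around the summit, beside 42.7% of all distal peaks of the list. The relative background of the 12 peaks was 1.18 to 3.21 with a median of 2.14, and its part in the number of peaks was not tested. The same region carried the single peaks of the other lists. It lay between AREGB and BTC, 84.8 kb beyond the 3′ end of BTC, and so outside the windows of 50 kb. There the peak of KYSE-30 replicate 6 at chr4:75584736-75585332 had a fold enrichment of 9.17 (52 tags), and 0.900% of that list had a smaller p-value. KYSE-30 replicate 4 had 3.44 (20 tags) at chr4:75584864-75585161, and HET-1A replicate 2 had 4.14 (17 tags) at chr4:75585030-75585229. The sequence shown above for this region holds 2 AP-1 cores. In the study's own analysis of these libraries, EREG, BTC, AREG and EPGN were among the genes given for regions more open in KYSE-30, so their peaks here are not independent evidence of that direction.

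**Figure D3:**
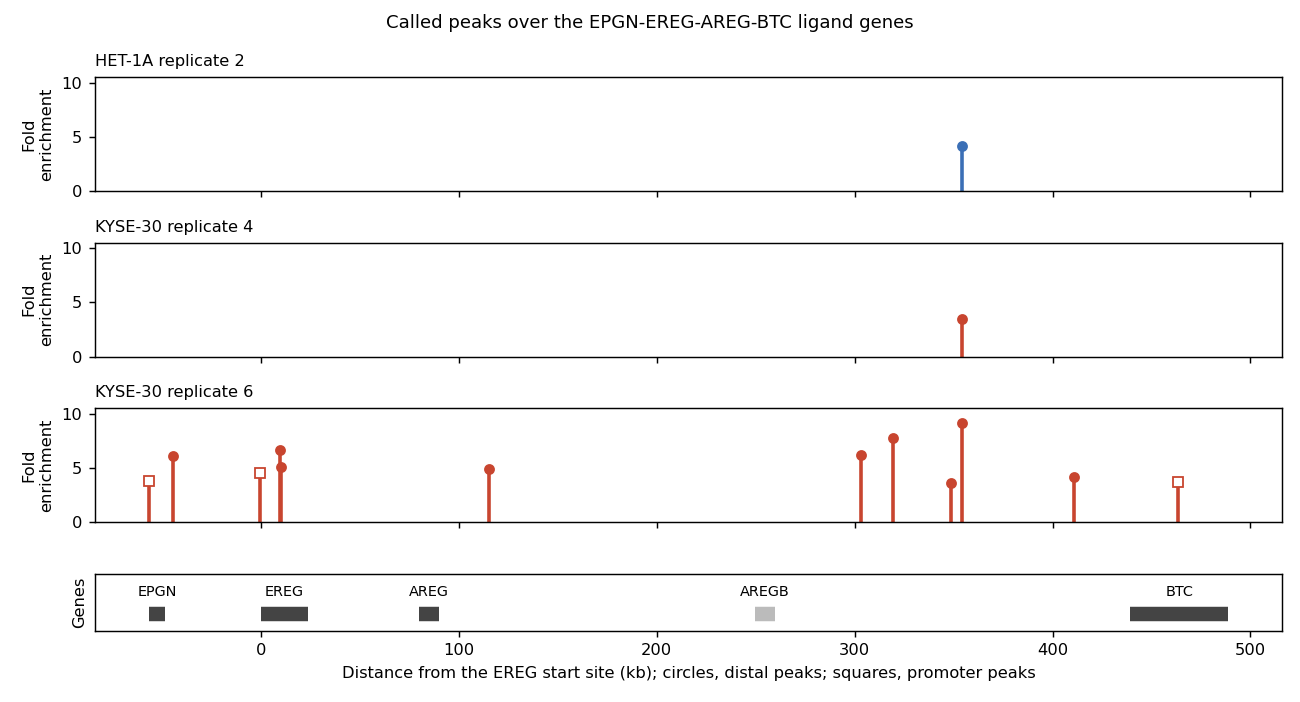
Fold enrichment (ratio, vertical axis) of the called peaks from EPGN to BTC against the distance from the EREG start site (kb), in the 3 libraries with a peak there, with circles for distal and open squares for promoter peaks and the gene bodies below. KYSE-30 replicate 6 has 12 peaks up to 9.17, and the single peaks of HET-1A replicate 2 (4.14) and KYSE-30 replicate 4 (3.44) sit at the position of its highest peak.

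TGFA, which encodes transforming growth factor alpha, had the most peaks of the 10 genes, 6 in HET-1A replicate 2, 1 in KYSE-30 replicate 4 and 4 in KYSE-30 replicate 6. The 3 shortest lists had none. The gene lies at chr2:70674416-70781325 on the minus strand. At the promoter, the peak of HET-1A replicate 2 (chr2:70781220-70781492) had a fold enrichment of 4.61 (26 tags), with its summit 0.39 kb upstream of the canonical start. That of KYSE-30 replicate 6 (chr2:70780845-70781052) had 4.52 (17 tags), with its summit 0.03 kb downstream. These peaks did not overlap. Each held a GC box, a motif of many promoters.

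Inside TGFA, both lines had peaks in the intron about 29 kb downstream of the start. HET-1A replicate 2 had 4.33 (24 tags) at chr2:70751430-70751743 and KYSE-30 replicate 4 had 4.0 (19 tags) at chr2:70751462-70751853. Next to it, HET-1A replicate 2 had 4.10 (23 tags) at chr2:70752240-70752446 and KYSE-30 replicate 6 had 4.43 (17 tags) at chr2:70752272-70752505. The libraries of KYSE-30 thus had neighbouring but not overlapping peaks here, and HET-1A replicate 2 overlapped both. Upstream of the gene, KYSE-30 replicate 6 had a peak of 5.97 (15 tags) at chr2:70823428-70824071, 42.6 kb from the start, which overlapped one of HET-1A replicate 2 of 4.37 (18 tags) at chr2:70823867-70824082. The summits of this pair lie apart, and the AP-1 core in the sequence shown above belongs to the summit of KYSE-30. The remaining distal peaks were 2 of HET-1A replicate 2, with 2.88 and 4.09, and 1 of KYSE-30 replicate 6, with 4.14.

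HBEGF, the gene of heparin-binding EGF-like growth factor, had 4 peaks in HET-1A replicate 2 and none in the other 5 replicates. It lies at chr5:139712428-139726188 on the minus strand. The promoter peak at chr5:139726100-139726437 had a fold enrichment of 4.27 (29 tags), with the summit 0.06 kb from the start and 3 GC boxes in the 162 bp upstream. A distal peak at chr5:139691636-139691974, 34.4 kb downstream of the start, had 6.02 (28 tags) and the smallest p-value of this gene, with 17.2% of the list ahead of it. The other two peaks lay at promoters of PFDN1 (4.14) and SLC4A9 (3.99). HBEGF thus had the reverse pattern of EREG, and neither pattern was tested between the lines.

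EGF itself had no peak at its canonical start in any library. The gene lies at chr4:110834039-110934922 on the plus strand. KYSE-30 replicate 6 had a peak at chr4:110888987-110889280 with a fold enrichment of 7.25 (18 tags), the highest of this list at promoters of the 10 genes. It lay 55.1 kb inside the gene, near the start of a retained-intron transcript that codes for no protein, and held an AP-1 core. HET-1A replicate 2 had a peak at chr4:110910328-110910528 with 4.37 (18 tags), in an intron and next to RNU6-35P, a pseudogene of a small nuclear RNA. When start sites of protein-coding transcripts alone were used, EGF had no promoter peak.

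NRG1, at chr8:31496738-32713184 on the plus strand, had 35 annotated transcripts with 32 start sites and no peak within 3 kb of any of them. Its peaks were all distal and in introns. HET-1A replicate 2 had 1 at chr8:31691040-31691364 with a fold enrichment of 5.76 (24 tags). KYSE-30 replicate 6 had 4, with 5.62 (19 tags) at chr8:32189166-32189428, 4.52 (14 tags) at chr8:32191903-32192131, 6.54 (16 tags) at chr8:32572756-32573019 and 4.42 (10 tags) at chr8:32669770-32670009. None of them overlapped the peak of HET-1A. The window of NRG1 is over 10 times the median, so that 4 peaks in it are no sign of a high density.

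**Figure D4:**
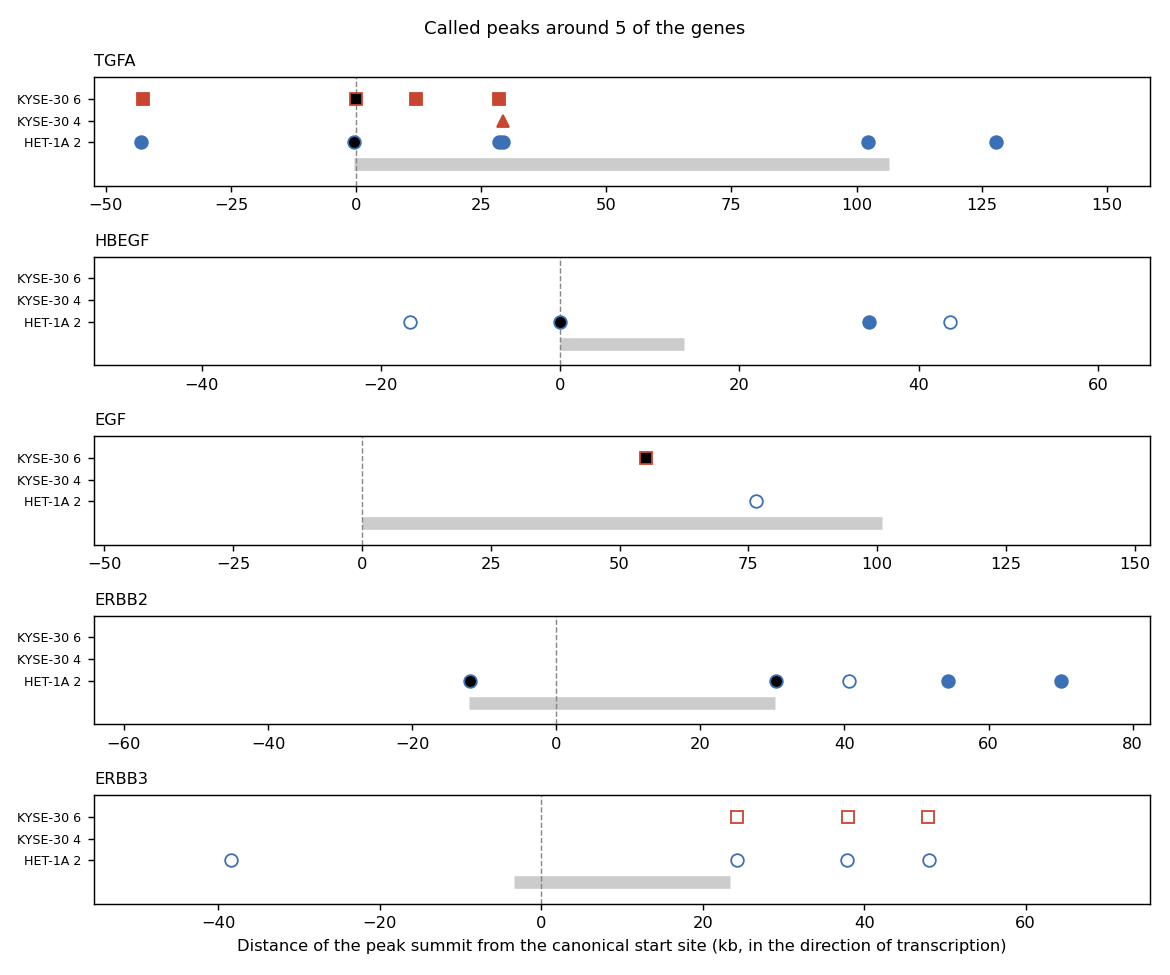
Position of the peak summits (kb from the canonical start site, in the direction of transcription) around TGFA, HBEGF, EGF, ERBB2 and ERBB3 in HET-1A replicate 2 (circles), KYSE-30 replicate 4 (triangle) and KYSE-30 replicate 6 (squares), filled in colour for distal, in black for promoter and in white for promoters of another gene, with the gene body in grey and its start as a dashed line. Black symbols sit at the dashed line at TGFA and HBEGF and away from it at EGF and ERBB2.

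Of the receptors, ERBB2 had 5 peaks in HET-1A replicate 2 and none in the other 5 replicates. The gene lies at chr17:37844167-37886679 on the plus strand. Both peaks counted at its promoter were weak and lay away from the canonical start. One at chr17:37844062-37844402, at the upstream start site and shared with the start of PGAP3, had a fold enrichment of 3.31 (23 tags). The other at chr17:37886671-37886870, at the 3′ end and shared with the start of MIEN1, had 3.02 (25 tags). A peak of 3.15 (35 tags) lay at the promoter of GRB7, whose product is an adaptor that binds ERBB2, and distal peaks of 3.33 (32 tags) and 4.41 (26 tags) lay farther downstream. The 5 peaks had 23 to 35 tags, beside a median of 25 over the list, while 4 of their fold enrichments lay below the median of 4.22 over the list. The relative background at the 5 peaks was 1.53 to 3.12 with a median of 2.27, beside 1.45 over the whole list, and its part in the result was not tested.

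ERBB3 had no promoter peak and no distal peak in any library, although its window held 4 peaks of HET-1A replicate 2 and 3 of KYSE-30 replicate 6. The gene lies at chr12:56470583-56497289 on the plus strand, in a stretch dense with genes. At the promoter of PA2G4, just beyond its 3′ end, the fold enrichments were 4.94 in HET-1A replicate 2 and 5.86 in KYSE-30 replicate 6. At the shared promoter of ZC3H10, RPL41 and ESYT1 they were 4.68 and 5.51, and at a further start of ESYT1 7.12 and 5.74. HET-1A replicate 2 also had a peak of 6.74 at RPS26. Peaks were thus called upstream and downstream of ERBB3 in HET-1A replicate 2 and downstream in KYSE-30 replicate 6, while its own start sites had none.

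ERBB4, at chr2:212240442-213403565 on the minus strand, had no promoter peak and 2 distal regions. In the intron near its 3′ end, 1130 kb from the canonical start, HET-1A replicate 2 had a peak of 5.06 (21 tags) at chr2:212273283-212273490, inside a peak of KYSE-30 replicate 6 of 7.24 (17 tags) at chr2:212273165-212273519. The latter was the highest distal fold enrichment of this list in the 10 windows. KYSE-30 replicate 6 had a further peak of 6.03 (14 tags) at chr2:213316693-213316925, 86.7 kb downstream of the start. The sequence shown above for the shared region holds none of the 4 motifs. All 3 peaks stood on the genome background of their library, with a relative background of 1.00.

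Within their lists, the peaks of the 10 windows were of average strength. In HET-1A replicate 2 their median fold enrichment was 4.35, beside 4.22 over the list, and the share of the list with a smaller p-value ranged from 4.02% to 92.4% with a median of 47.3%. In KYSE-30 replicate 6 the median was 5.51, beside 5.47, and the share ranged from 9.02% to 97.4% with a median of 46.9%. Tag numbers had a median of 24.5 in the former, beside 25 over the list, and of 17 in the latter, as over the list. Single peaks rested on 10 to 39 tags.

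**Figure D5:**
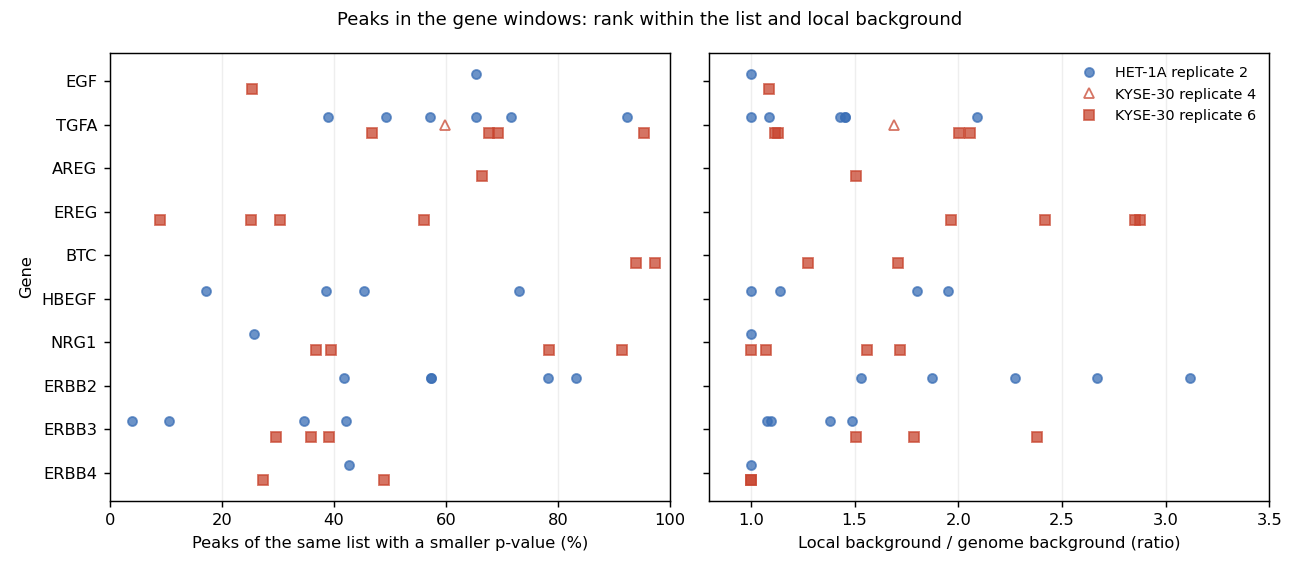
For each peak in the windows (points, by gene), the share of its list with a smaller p-value (%, left) and its local background over the genome background of the library (ratio, right), in HET-1A replicate 2, KYSE-30 replicate 4 and KYSE-30 replicate 6. The EREG peaks stand at 9.02 to 56.1% on the left and at 1.96 to 2.88 on the right, and the ERBB2 peaks reach 3.12 on the right.

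An AP-1 core lay within 200 bp around the summit of 3 of the 22 peaks in the windows in HET-1A replicate 2, beside 21.7% of its whole list, and of 6 of the 21 in KYSE-30 replicate 6, beside 26.1%. Among distal peaks it was found in 2 of 10, beside 32.2%, and in 5 of 14, beside 42.7%. Over whole distal peaks it was found in 2 of 10, beside 36%, and in 6 of 14, beside 47.3%. The distal shares in the windows lay below those of the lists, but they rest on few peaks and the difference was not tested. EREG, with all 3 of its distal peaks, was the gene with the most. A GC box was found in 6 of the 12 promoter peaks of HET-1A replicate 2, own and others' promoters together, beside 48.2%, and in 2 of the 7 of KYSE-30 replicate 6, beside 45.7%. The TEAD motif was found in 1 of the 10 distal peaks of HET-1A replicate 2, beside 16.1%, and in 5 of the 14 of KYSE-30 replicate 6, beside 22.1%. The cyclic AMP response element was found around none of the summits, where 1.45% and 1.56% of the whole lists held it, and in 1 whole peak of HET-1A replicate 2. A match gives the letters of the sequence only.

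Of 16 other genes of the pathway, 9 had a promoter peak in HET-1A replicate 2, 5 in KYSE-30 replicate 6 and 0 in the other 4 replicates. Of all protein-coding genes, 35.4% had one in HET-1A replicate 2, 28.7% in KYSE-30 replicate 6 and 0.0942% to 3.87% in the others. Values were to be given for genes with a promoter peak in 3 or more libraries, which none had, and those named here were chosen after their values were seen. EGFR, the receptor that most of these ligands bind, had one in both lists, with fold enrichments of 5.06 in HET-1A replicate 2 and 5.96 in KYSE-30 replicate 6. The same held for ADAM17 (4.15 and 5.99), the protease that releases several of the ligands, and for the adaptors SHC1 (5.50 and 5.60) and SOS1 (4.52 and 4.83). Of the ligands in this list, EPGN had one in KYSE-30 replicate 6 (3.76), and NRG2, NRG3 and NRG4 had none. ADAM10, RHBDF1, GAB1, GRB2 and LRIG1, an inhibitor of the receptors, had one in HET-1A replicate 2 alone, between 3.57 and 5.07. RHBDF2 and the inhibitors ERRFI1 and CBL had none.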

How the data were processed

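Open chromatin was measured by ATAC-seq in HET-1A, KYSE-30 and KYSE-150. The authors quality-trimmed reads, marked duplicates, aligned to hg19, excluded blacklisted regions and corrected positions for Tn5. Fragments below 100 bp went into MACS2 (q-value 0.05), one library at a time, without control or pooling. Per the labels, Bowtie2 2.3.3.1, Picard 2.2.1, bedtools 2.7.1 and MACS2 2.1.0.20160309 were used. The deposited lists give a score (10 times −log10 q, at most 1000), a fold enrichment (a ratio), and p-values and q-values as −log10. The largest q-value of a deposited list was between 0.0246 and 0.0495.

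Peaks were intersected (1 bp) with windows and promoters from GENCODE 44 lifted to hg19. Tags and local background were recovered from fold enrichment and p-value, within 0.001 of −log10 p, and this and the window step were tested on simulated data (200 peaks per library and 40 windows, 100% recovered). Motifs were searched in hg19. Python 3.11.15, numpy 2.4.6, pandas 2.3.3, scipy 1.17.1 and matplotlib 3.10.9 were used. All 10 genes are described, with the strongest promoter and distal peak of each and the regions shared between libraries. The genes, lists and motifs were chosen with earlier results of these data known. Alternatives were a stricter q-value, equal or shortened lists, a larger overlap, other promoter and window sizes, protein-coding or canonical start sites and each library left out. Of 2 endothelial markers, PECAM1 was not found among protein-coding genes of the annotation. Read counts are not used here, so the depth is unknown, and a missing peak does not show closed chromatin.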

Additional observations from a re-analysis of the deposited data

How the results depend on the processing

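In KYSE-150 the counts of genes with a promoter peak, distal regions and regions found in both libraries were 0 and stayed 0 under all 29 alternatives run. Since KYSE-150 had no peak in the windows, only the window of 100 kb could have raised a count. Under the other alternatives a count of 0 was fixed in advance. In all, 15 of 89 alternatives moved a count beyond 1.5 times, where the 89 include the 29 of KYSE-150. The counts rest on HET-1A replicate 2 and KYSE-30 replicate 6. With each library left out in turn, genes with a promoter peak ranged from 0 to 3 in HET-1A (3 as reported) and from 0 to 4 in KYSE-30 (4), distal regions from 0 to 10 in HET-1A (10) and from 1 to 14 in KYSE-30 (15), and regions found in every remaining library of the line from 0 to 22 in HET-1A (0) and from 1 to 21 in KYSE-30 (0), where leaving out a library leaves a single list. With 168 peaks per list, promoter and distal counts were 0 and 0 in HET-1A and 0 and 0 in KYSE-30. These counts leave out peaks at promoters of another gene. The best p-value rank of any peak in the windows of 50 kb was 643, at such a promoter beside ERBB3 in HET-1A replicate 2. None was thus among the 168 of smallest p-value of its list. A window of 10 kb left 5 distal regions in HET-1A, and one of 100 kb gave 23 in KYSE-30, 2 of its regions then being found in both libraries. With the canonical start site alone, an alternative chosen after the data were seen, genes with a promoter peak fell to 2 in KYSE-30 (TGFA and EREG). Under a q-value under 0.001 BTC lost its promoter peak, and with HET-1A replicate 2 shortened to 11671 peaks ERBB2 lost its own, both counts staying within 1.5 times. No paired analysis was made, since the labels give no pairing between the lines, and no test was run.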
